A study of Mus musculus with 12 samples.

Results

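The 34 marker genes of T cells, natural killer (NK) cells and B cells were followed in liver RNA from 12 mice. They were taken by gene symbol from the deposited count table, and a gene was kept with 10 or more counts in at least 3 of the 12 libraries. All 34 listed genes were kept, of 22537 genes in the table, and all 34 were among the 13968 genes tested. By cell type, 14 are T cell genes, 12 are genes of NK cells and other cytotoxic lymphocytes, 4 are B cell genes and 4 are shared by lymphocyte types.

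The mice fell into 4 groups of 3, with 1 library per mouse. In AHR KO the aryl hydrocarbon receptor gene Ahr is the one labelled as knocked out, and AHR Flox is its floxed control line. In ARNT KO the gene of its dimer partner, Arnt, is knocked out, and ARNT Flox is the matching floxed line. Every mouse was an adult C57BL/6 female, 6 months old, kept 13 weeks on a high-fat diet, so no group on another diet was compared. The promoter or cell type behind the deletion, and the exons it removes, were not given in the sources used here, nor was whether lymphocytes carry the deletion.

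T cells recognise antigen through the T cell receptor, whose CD3 chains pass the signal to the kinases Lck and Zap70 and the adaptor Lat. NK cells and cytotoxic T cells kill targets with perforin and granzymes, and read stress ligands through receptors such as NKG2D. B cells signal through the B cell receptor, of which Cd79a and Cd79b are the signalling chains. The mouse liver holds many NK, NKT and memory T cells in its sinusoids, among them cells that carry the chemokine receptor Cxcr6. AHR and ARNT form a ligand-activated transcription factor, and AHR is also known to act in several lymphocyte types.

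Libraries held 23585909 to 33255004 counts. Levels are given as CPM, in which TMM scaling puts the counts of all libraries on a common footing. A count of 0 still allows a level of up to 3 counts, which equalled 0.0861 to 0.126 CPM. Arnt was at 25.2, 23.9 and 19.0 CPM in ARNT KO, against 47.8, 52.5 and 50.3 CPM in ARNT Flox. Ahr was at 84.4, 94.8 and 80.3 CPM in the libraries labelled AHR KO, against 53.9, 78.8 and 72.4 CPM in AHR Flox, so the Ahr count over the whole gene was not lower under that label. AHR KO below therefore names the label, here and in every direction drawn from it. Albumin, the main hepatocyte transcript, was at 5491 to 7089 CPM in AHR KO, against 78433 to 89275 CPM in AHR Flox. It was at 5740 CPM in ARNT KO replicate 3, at 51926 and 53685 CPM in the other ARNT KO libraries, and at 69704 to 87894 CPM in ARNT Flox. ARNT KO replicate 3 also stood apart on the first principal component of all genes tested (43.0% of the variance, at 65.3, against −30.9 to 30.3 in the other libraries), and each count of called members is given with and without it. The part of these differences in the lymphocyte values was not tested.

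Reads of the 34 genes were 0.00487% to 0.0101% of a library. The median count per library ran between 3.5 for Eomes, the T-box factor of NK cells, and 706 for Zap70. Counting alone gives a coefficient of variation of 53.5% at the Eomes median, of 16.9% at the median of 35 counts of Cd3e, and of 3.76% at that of Zap70. Fewer lymphocytes and less RNA of a gene per lymphocyte cannot be told apart in such bulk liver RNA.

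Per kilobase of exon sequence, Zap70 had the highest mean of the 12 libraries, at 8.32 CPM per kb. The other T cell signalling genes were at 0.728 (Lck), 0.398 (Lat), 0.408 (Cd3d), 0.319 (Cd3g), 0.254 (Cd3e) and 0.0918 (Cd247, the zeta chain) CPM per kb, so Zap70 stood far above the CD3 chains that it binds in T cells. Which cell types carry the Zap70 reads was not tested, so its values need not report T cells. The coreceptor genes Cd8b1, Cd8a and Cd4 were at 0.293, 0.280 and 0.195 CPM per kb. The cytokine receptor gene Il7r was at 0.264 CPM per kb, and the surface receptors Cd28, Cd5 and Cd6 were at 0.0815, 0.0797 and 0.0757 CPM per kb.

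Of the NK and cytotoxic genes, the chemokine gene Ccl5 was highest, at 3.15 CPM per kb, followed by the cytotoxic granule gene Nkg7 at 1.30 CPM per kb. Granzyme genes Gzma and Gzmb were at 0.978 and 0.806 CPM per kb, and the perforin gene Prf1 was at 0.187 CPM per kb. Il2rb, the interleukin-2 and interleukin-15 receptor beta chain, was at 0.919 CPM per kb. The receptors Cd2, Klrk1, Ncr1 and Klrb1c were at 0.416, 0.389, 0.322 and 0.263 CPM per kb, and the T-box factors Tbx21 and Eomes at 0.230 and 0.0390 CPM per kb. Of the B cell genes, Cd79b and Cd79a were at 1.21 and 0.863 CPM per kb, the kinase gene Blk at 0.364 and Ms4a1, which encodes CD20, at 0.123 CPM per kb. Of the shared genes, the actin-binding Coro1a was at 4.31 CPM per kb, the cytokine gene Ltb at 1.60, Cxcr6 at 0.747 and Cd27, a receptor of the TNF receptor family, at 0.310 CPM per kb. The plot of levels per length shows these values. That every gene shown was detected follows from the count rule, and Eomes reached 10 counts in only 3 of the 12 libraries.

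**Figure D1:**
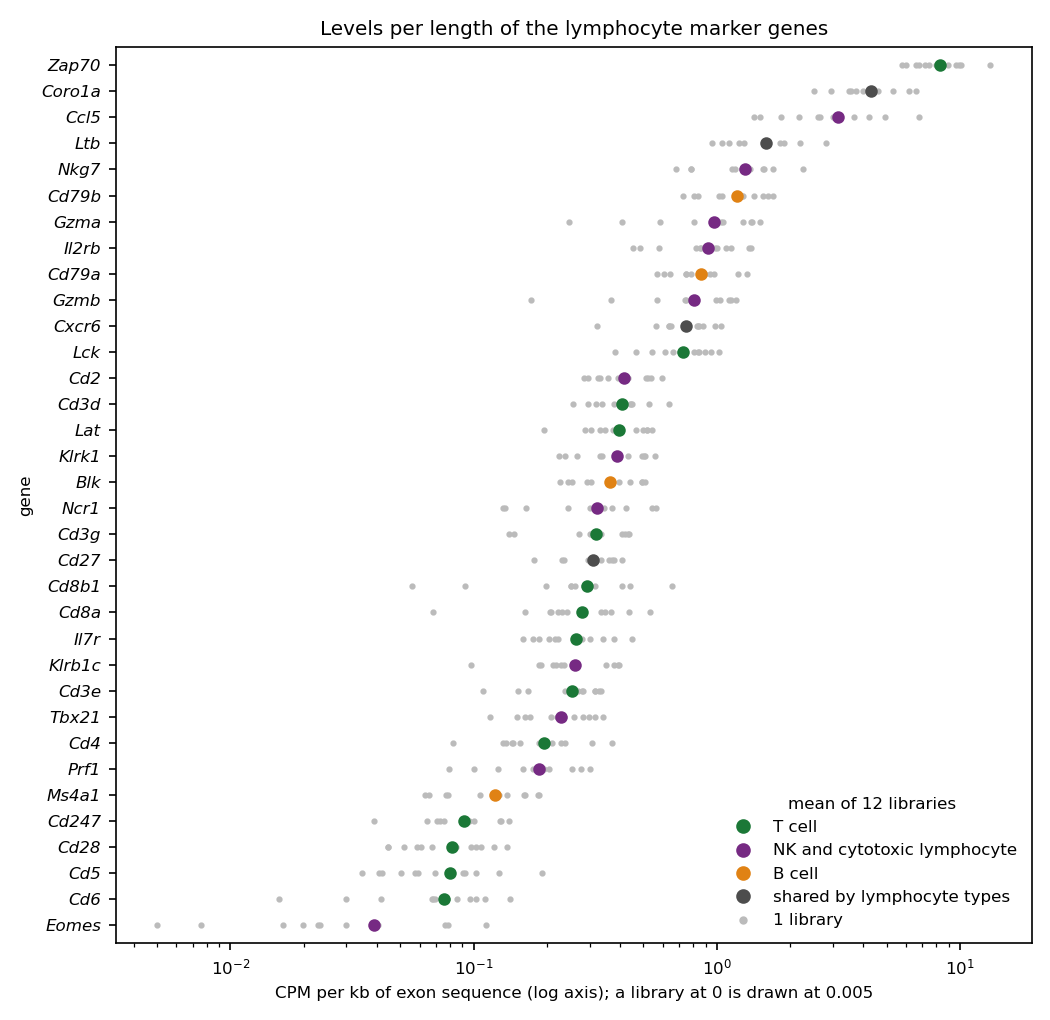
Level of each of the 34 genes in CPM per kb of exon sequence on a log axis; coloured points are means over 12 libraries, coloured by cell type, and grey points are single libraries. Zap70 lies highest, at 8.32 CPM per kb, and Eomes lowest, at 0.0390 CPM per kb.

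Promoter windows of RefSeq (build GRCm38.p6, 250 bases before to 50 after the annotated start) matched 24 of the 34 genes by symbol. The windows of Cd3e (chr9:45009562-45009861, minus strand), Nkg7 (chr7:43436888-43437187, plus strand), Klrk1 (chr6:129623815-129624114, minus strand) and Zap70 (chr1:36761548-36761847, plus strand) are printed 5′ to 3′. They are examples of the T cell and NK genes described below, none of which was called in the main fit. Capitals mark, on either strand, the motifs AGGAAG (ETS core), TGTGGT (RUNX core), GGTGTGA (T-box half-site) and GCGTG (core of the AHR-ARNT element), with no overlap among the capitals.
Cd3e: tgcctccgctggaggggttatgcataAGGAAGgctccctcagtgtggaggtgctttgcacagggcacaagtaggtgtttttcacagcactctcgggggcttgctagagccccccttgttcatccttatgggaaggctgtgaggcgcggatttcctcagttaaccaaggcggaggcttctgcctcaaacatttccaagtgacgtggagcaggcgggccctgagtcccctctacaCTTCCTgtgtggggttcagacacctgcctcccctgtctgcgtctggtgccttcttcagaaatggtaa
Nkg7: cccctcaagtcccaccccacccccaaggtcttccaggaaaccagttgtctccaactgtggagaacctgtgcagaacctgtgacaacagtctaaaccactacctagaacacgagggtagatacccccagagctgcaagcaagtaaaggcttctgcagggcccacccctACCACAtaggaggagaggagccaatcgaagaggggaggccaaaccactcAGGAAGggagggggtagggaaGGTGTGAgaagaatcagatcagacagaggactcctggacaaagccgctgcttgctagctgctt
Klrk1: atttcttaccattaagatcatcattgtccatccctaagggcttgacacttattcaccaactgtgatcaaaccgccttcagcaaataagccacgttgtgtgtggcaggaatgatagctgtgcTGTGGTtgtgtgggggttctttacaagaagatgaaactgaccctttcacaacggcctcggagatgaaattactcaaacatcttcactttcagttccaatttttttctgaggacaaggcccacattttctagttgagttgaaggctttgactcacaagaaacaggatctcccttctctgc
Zap70: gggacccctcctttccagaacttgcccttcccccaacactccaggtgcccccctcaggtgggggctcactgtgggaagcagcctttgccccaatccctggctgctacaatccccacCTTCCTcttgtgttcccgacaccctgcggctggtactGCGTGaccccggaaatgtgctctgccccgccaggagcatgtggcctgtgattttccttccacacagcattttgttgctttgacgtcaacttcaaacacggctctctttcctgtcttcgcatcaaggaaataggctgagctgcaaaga
The GCGTG core was in 4 of the 24 windows (16.7%; Cd79a, Cd8a, Lat and Zap70), against 32.5% of the 27025 windows of all genes. The ETS core was in 14 of the 24 (58.3%, against 35.1% of all), the RUNX core in 11 (45.8%, against 16.9%) and the T-box half-site in 1, Nkg7 (4.17%, against 3.96%). A match in a window is a description of its letters and not a bound site.

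In AHR KO livers, most T cell and NK genes had a higher fitted level than in AHR Flox livers. Of the 4 B cell genes, 2 were higher and 2 lower. No member passed the test across all genes. Of the 34, 29 had a higher and 5 a lower fitted level, with a median log2 change of 0.64, while the median over all genes tested was 0.005. The medians were 0.59 for the T cell genes, 0.83 for the NK and cytotoxic genes, 0.56 for the shared genes and −0.24 for the B cell genes. In the edgeR quasi-likelihood test with Benjamini-Hochberg adjustment over all genes, 0 of the 34 were called at an adjusted p under 0.05, against 0.0788% of all genes tested. At an unadjusted p under 0.05 there were 10 higher and 2 lower, 12 in all, against 11.9% of all genes, of which 6.33% were higher and 5.58% lower. All 3 AHR KO libraries lay above all 3 AHR Flox libraries for 16 of the 34 genes, against 11.7% of all genes, and below them for 1, Cd79b, against 9.46% of all genes.

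Il2rb (chromosome 15, 78479256 to 78495271, minus strand; gene positions are from GENCODE M21, GRCm38), which carries the interleukin-15 signal NK cells need, was at 4.91, 4.30 and 4.67 CPM in AHR KO, against 2.49, 1.95 and 2.07 CPM in AHR Flox. The groups did not overlap, and the means were 4.63 ± 0.307 CPM in AHR KO and 2.17 ± 0.282 CPM in AHR Flox (SD, n = 3 each). The edgeR log2 change was 1.09 ± 0.24 (SE), with an adjusted p of 0.101. ARNT KO replicate 3 is in neither group and enters through the shared spread, filter, scaling and adjustment. Without it, Il2rb was called (log2 change 1.09, adjusted p = 0.0315), as were 0.966% of all genes in that fit. Over all settings its adjusted p ran between 0.00337 and 0.429.

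The 3 CD3 genes lie side by side on chromosome 9 (Cd3g at 44969572 to 44980431, Cd3d at 44981786 to 44987339 and Cd3e at 44998740 to 45009627). Cd3e was at 1.37, 1.29 and 0.972 CPM in AHR KO, against 0.681, 0.444 and 0.621 CPM in AHR Flox, with no overlap (log2 change 1.05 ± 0.23, edgeR adjusted p = 0.101). Cd3g was at 1.33, 1.42 and 1.03 CPM in AHR KO, against 0.885, 0.478 and 0.456 CPM in AHR Flox, again with no overlap (1.04 ± 0.28, adjusted p = 0.150). Every AHR KO value of these receptor chains lay above every AHR Flox value, and the same held for Cd3d, at 0.813, 0.809 and 0.753 CPM in AHR KO, against 0.579, 0.615 and 0.538 CPM in AHR Flox. The kinase gene Lck was at 2.37, 2.78 and 2.07 CPM in AHR KO, against 1.94, 1.37 and 1.12 CPM in AHR Flox (0.70 ± 0.28, adjusted p = 0.348). The adaptor gene Lat was at 1.43, 1.29 and 1.38 CPM in AHR KO, against 0.920, 0.957 and 0.538 CPM in AHR Flox (0.75 ± 0.29, adjusted p = 0.321). Lck and Lat did not overlap between the groups either, and AHR Flox replicate 3 held the lowest value of both.

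Zap70 had a lower fitted level in AHR KO, unlike its pathway partners, and did not pass the test. It was at 20.4, 18 and 22.4 CPM in AHR KO, against 29.8, 19.8 and 28.9 CPM in AHR Flox, and the groups overlapped. The coreceptor genes differed among themselves. Cd8b1 was at 0.423, 0.388 and 0.470 CPM in AHR KO, against 0.375, 0.137 and 0.0828 CPM in AHR Flox, with no overlap but on few counts. Cd4 was at 0.846, 0.582 and 0.533 CPM in AHR KO, against 0.749, 0.547 and 0.331 CPM in AHR Flox, and overlapped. Cd8a averaged 0.802 ± 0.0454 CPM in AHR KO and 0.799 ± 0.513 CPM in AHR Flox (SD, n = 3 each). For each count over the 3 CD3 genes together there were 5.81, 5.10 and 8.11 Zap70 counts in AHR KO, against 13.9, 12.9 and 17.9 in AHR Flox. That ratio, which does not depend on library scaling, did not overlap between these groups, while in ARNT KO it was 8.59, 7.72 and 5.89, against 8.48, 7.85 and 12.4 in ARNT Flox.

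Among the NK genes, Klrk1 (NKG2D; chromosome 6, 129610323 to 129623864) was at 3.09, 3.66 and 2.38 CPM in AHR KO, against 1.70, 1.91 and 1.62 CPM in AHR Flox (log2 change 0.80 ± 0.22, edgeR adjusted p = 0.160, ranging between 0.0460, with DESeq2, and 0.523 over the settings). Nkg7 was at 1.56, 1.42 and 1.25 CPM in AHR KO, against 0.715, 0.718 and 0.621 CPM in AHR Flox (1.04 ± 0.28, adjusted p = 0.151). In both genes the lowest AHR KO liver lay above the highest AHR Flox liver. Ncr1, which encodes the NK receptor NKp46, was at 0.651, 0.485 and 0.502 CPM in AHR KO, against 0.204, 0.376 and 0.207 CPM in AHR Flox (1.03 ± 0.39, adjusted p = 0.318). Gzma was at 1.40, 1.29 and 0.815 CPM in AHR KO, against 0.988, 0.410 and 0.248 CPM in AHR Flox (1.06 ± 0.47, adjusted p = 0.399). Ncr1 did not overlap between the groups, and Gzma did, since AHR Flox replicate 1 exceeded AHR KO replicate 3. Prf1, at 0.325, 0.259 and 0.470 CPM in AHR KO, against 0.477, 0.205 and 0.456 CPM in AHR Flox, was the NK gene whose fitted level was lower. Of the shared genes, Cxcr6 was at 1.69, 2.01 and 1.60 CPM in AHR KO, against 1.09, 1.23 and 0.621 CPM in AHR Flox, with no overlap (0.83 ± 0.26, adjusted p = 0.223).

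The B cell genes were not uniform. Cd79b (chromosome 11, 106311341 to 106314762) was at 1.04, 1.2 and 1.16 CPM in AHR KO, against 1.84, 1.5 and 1.82 CPM in AHR Flox, so that every AHR KO liver lay below every AHR Flox liver (log2 change −0.60 ± 0.22, edgeR adjusted p = 0.307). Ms4a1 was at 0.390, 0.485 and 0.408 CPM in AHR KO, against 0.851, 0.478 and 0.787 CPM in AHR Flox, with an overlap through AHR Flox replicate 2 (−0.71 ± 0.32, adjusted p = 0.412). Cd79a, the partner chain of Cd79b, was at 1.14, 1.42 and 0.941 CPM in AHR KO, against 1.29, 0.889 and 0.828 CPM in AHR Flox, and Blk likewise overlapped.

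**Figure D2:**
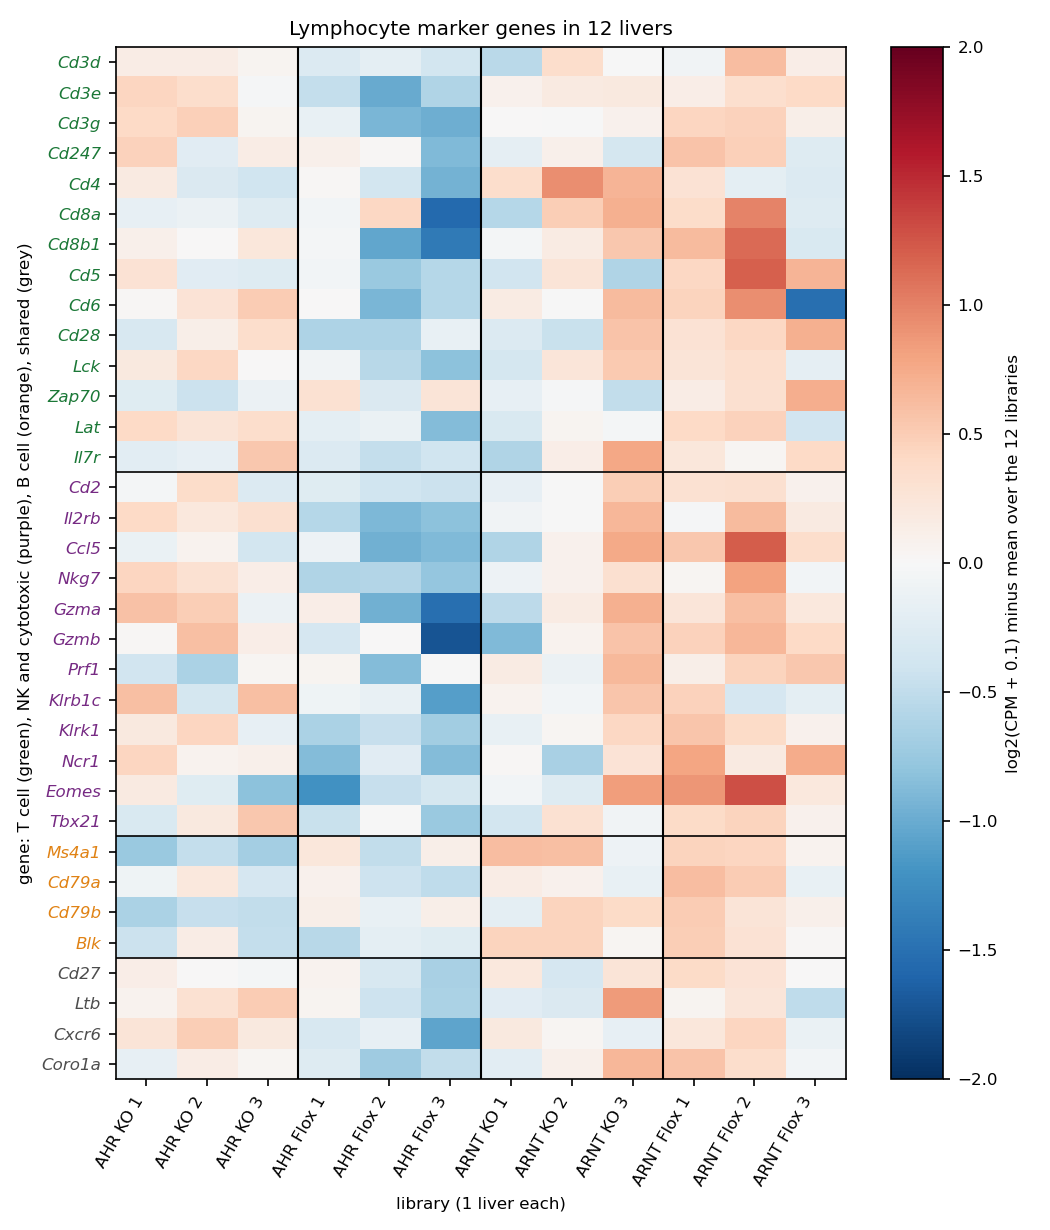
Level of each of the 34 genes in each library, as log2(CPM + 0.1) minus the gene's mean over the 12 libraries; rows are genes by cell type and columns are livers by group. Most T cell and NK rows are blue (below the mean) in AHR Flox, where replicate 3 is the lowest library for 18 of the 34 genes.

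One liver weighed on these counts. AHR Flox replicate 3 held the lowest CPM of the 12 livers for 18 of the 34 genes, AHR Flox replicates 2 and 1 for 6 and 4, and the AHR KO libraries for 2, 0 and 0. Without AHR Flox replicate 3, 7 members in place of 12 had an unadjusted p under 0.05 in AHR KO. The share of all genes at that threshold is not given for that fit, so the fall is not read as a trait of the members. Summed over genes, the 13 T cell genes other than Zap70 were at 12.5, 12.3 and 12 CPM in AHR KO, against 9.64, 7.79 and 5.96 CPM in AHR Flox. The 12 NK and cytotoxic genes were at 18, 18.2 and 16.0 CPM in AHR KO, against 11.6, 9.77 and 8.08 CPM in AHR Flox. Neither sum overlapped between these groups, with AHR Flox replicate 3 lowest in both. The 4 B cell genes were at 3.25, 4.17 and 3.17 CPM in AHR KO, against 4.60, 3.69 and 4.22 CPM in AHR Flox, and overlapped.

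**Figure D3:**
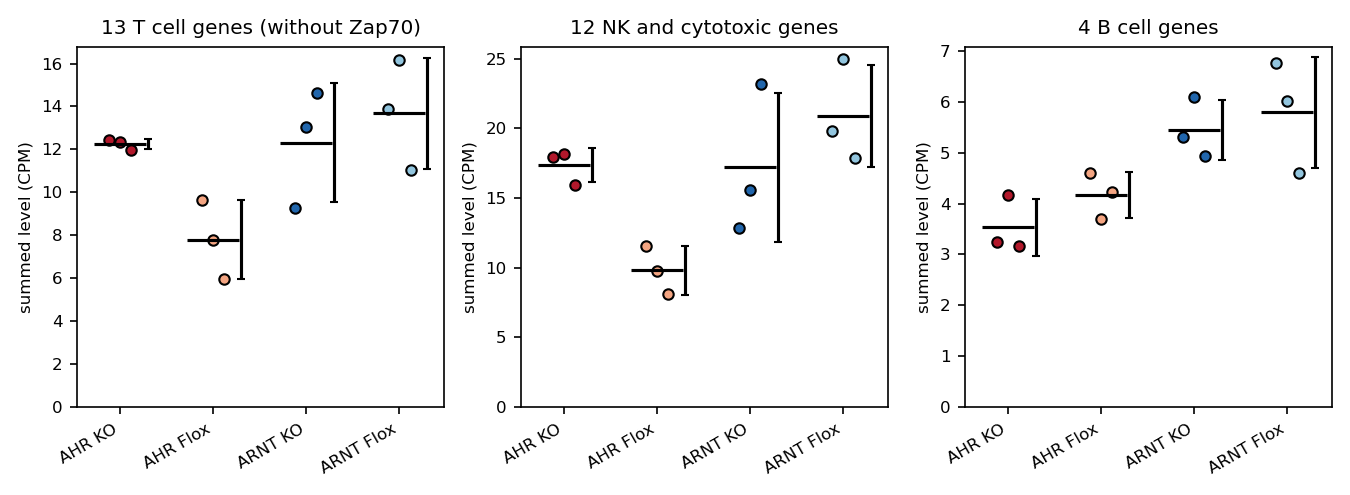
Summed level in CPM of 13 T cell genes, 12 NK and cytotoxic genes and 4 B cell genes in each liver of the 4 groups; points are livers, lines are means and bars are SD (n = 3). AHR Flox has the lowest mean for the T cell and NK sums, with livers at 5.96 to 9.64 and 8.08 to 11.6 CPM. ARNT KO replicate 1, at 9.25 CPM, lies within the AHR Flox range of the T cell sum. For the B cell genes AHR KO and AHR Flox overlap.

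Counts of T cell genes (without Zap70) per B cell count, a ratio within each library, were 3.83, 2.95 and 3.78 in AHR KO, against 2.10, 2.11 and 1.41 in AHR Flox. The NK counts per B cell count were 5.52, 4.36 and 5.04 in AHR KO, against 2.52, 2.65 and 1.91 in AHR Flox. Both ratios lay higher in every AHR KO liver than in every AHR Flox liver. In ARNT KO the T to B ratio was 1.74, 2.14 and 2.97, against 2.05, 2.69 and 2.39 in ARNT Flox, and the NK to B ratio was 2.42, 2.55 and 4.69, against 2.93, 4.16 and 3.87 in ARNT Flox. There the groups overlapped, with ARNT KO replicate 3 the highest of its group in both. NK counts per T cell count stayed between 1.2 and 1.62 in all 12 livers.

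In ARNT KO livers no member passed the test against ARNT Flox. The fitted level was higher for 6 and lower for 28, with a median log2 change of −0.18, while the median over all genes tested was 0.009. None of the 34 was called (0, against 0.0573% of all genes), and 3 had an unadjusted p under 0.05, against 5.88% of all genes (3.36% higher and 2.53% lower): Cd4 was the higher, Cd5 and Zap70 the lower. All 3 ARNT KO libraries lay above all 3 ARNT Flox libraries for 1 gene, Cd4, against 5.94% of all genes, and below them for 3, Cd3g, Cd5 and Zap70, against 4.9%. Without ARNT KO replicate 3, the median was −0.37 and 31 of the 34 had a lower fitted level, with Lck, Klrb1c and Ltb among the lower, which were among the higher with that library. In that fit 0 were called and 7 had an unadjusted p under 0.05, 1 higher and 6 lower, against 7.48% of all genes higher and 8.94% lower, or 16.4% in all; the called share of all genes was then 1.37%.

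Zap70 (chromosome 1, 36761798 to 36782818, plus strand) was at 21.6, 23.8 and 17.3 CPM in ARNT KO, against 26.8, 30.2 and 40.0 CPM in ARNT Flox. The groups did not overlap, with a log2 change of −0.63 ± 0.19 and an edgeR adjusted p of 0.584. Cd5, a receptor that dampens T cell receptor signals, was at 0.248, 0.445 and 0.201 CPM in ARNT KO, against 0.506, 0.939 and 0.628 CPM in ARNT Flox (−1.21 ± 0.39, adjusted p = 0.643). Cd4, the coreceptor of helper T cells, which macrophages and dendritic cells can also carry, was at 0.962, 1.49 and 1.23 CPM in ARNT KO, against 0.923, 0.626 and 0.587 CPM in ARNT Flox (0.77 ± 0.32, adjusted p = 0.793). Cd4 and Cd5 rest on 7 to 47 counts per library here. Il2rb, by contrast, was at 3.54, 3.69 and 5.94 CPM in ARNT KO, against 3.66, 5.82 and 4.23 CPM in ARNT Flox, with overlap, and the T cell sum was at 9.25, 13.0 and 14.6 CPM in ARNT KO, against 13.9, 16.2 and 11 CPM in ARNT Flox.

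The floxed control lines were also set against each other. Against AHR Flox, all 34 genes had a higher fitted level in ARNT Flox, with a median log2 change of 0.71, while the median over all genes tested was −0.001. In edgeR 0 of the 34 were called, against 0.329% of all genes. At an unadjusted p under 0.05, 20 were higher and 0 lower, against 19.9% of all genes in either direction, 10.5% higher and 9.33% lower. ARNT Flox lay above AHR Flox without overlap for 20 genes, against 18.1% of all genes, and below it for 0, against 17.7%. Without ARNT KO replicate 3, 11 of the 34 were called higher, against 6.38% of all genes called higher in that fit and 10.9% called in either direction. Those were Cd3e, Cd3g, Cd5, Cd28, Il2rb, Ccl5, Nkg7, Klrk1, Ncr1, Eomes and Coro1a, at adjusted p-values of 0.00632 (Il2rb) to 0.0443 (Cd28). Over all settings the adjusted p ran between 0.00435 and 0.258 for Il2rb, and between 0.0443 and 0.383 for Cd28. Without ARNT Flox replicate 2 or AHR Flox replicate 3, 12 and 13 genes in place of 20 had an unadjusted p under 0.05. The shares of all genes at that threshold are not given for those fits, so these falls are not read as a trait of the members.

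Klrk1 was at 3.99, 3.54 and 2.85 CPM in ARNT Flox, against 1.70, 1.91 and 1.62 CPM in AHR Flox (log2 change 0.99 ± 0.22, edgeR adjusted p = 0.0785). Il2rb gave 1.07 ± 0.24 (adjusted p = 0.0783), and Cd3e, at 1.10, 1.28 and 1.34 CPM in ARNT Flox, against 0.681, 0.444 and 0.621 CPM in AHR Flox, gave 1.09 ± 0.23 (adjusted p = 0.0773). These were the members with the smallest p in this comparison, and in none of them did the lines overlap. Ccl5, a chemokine of activated T and NK cells, was at 4.05, 6.51 and 3.52 CPM in ARNT Flox, against 2.55, 1.37 and 1.45 CPM in AHR Flox (1.39 ± 0.37, adjusted p = 0.123). Coro1a was at 17.2, 14.8 and 11.1 CPM in ARNT Flox, against 9.71, 7.01 and 8.24 CPM in AHR Flox (0.79 ± 0.23, adjusted p = 0.135). Exons of Coro1a overlap those of Bola2 on the other strand, and those of Cd247 overlap Pou2f1, so without a stated strand setting of the counting their reads cannot be told apart. Eomes had 11, 15 and 4 counts in ARNT Flox, against 0, 2 and 2 counts in AHR Flox, which is below the 3 counts that a count of 0 still allows, and no fold is given for it (adjusted p = 0.144).

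The remaining T cell genes with an unadjusted p under 0.05 in ARNT Flox against AHR Flox were Cd3g (log2 change 1.08 ± 0.28, edgeR adjusted p = 0.111), Cd5 (1.51 ± 0.41, 0.127), Cd8b1 (1.66 ± 0.52, 0.149), Cd28 (1.12 ± 0.39, 0.173) and Lck (0.64 ± 0.28, 0.239). The NK and cytotoxic genes were Nkg7 (1.07 ± 0.28, adjusted p = 0.115), Ncr1 (1.47 ± 0.38, 0.116), Cd2 (0.68 ± 0.28, 0.219), Gzmb (1.10 ± 0.46, 0.221), Gzma (1.07 ± 0.47, 0.238) and Tbx21 (0.79 ± 0.35, 0.241). Both B cell genes of the kind, Blk (0.67 ± 0.27, adjusted p = 0.207) and Cd79a (0.68 ± 0.28, 0.212), stood higher in ARNT Flox, as did Cxcr6 (0.70 ± 0.26, 0.195). B cell genes thus stood higher together with T and NK genes here. The B cell sum was 6.76, 6.01 and 4.61 CPM in ARNT Flox, against 4.60, 3.69 and 4.22 CPM in AHR Flox. Among the genes of these lists, Cd8b1, Lck and Cd79a overlapped between the lines. Cd8b1 had 11, 4 and 2 counts in AHR Flox, the last below the 3 counts that a count of 0 still allows. Its fold is therefore poorly measured.

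**Figure D4:**
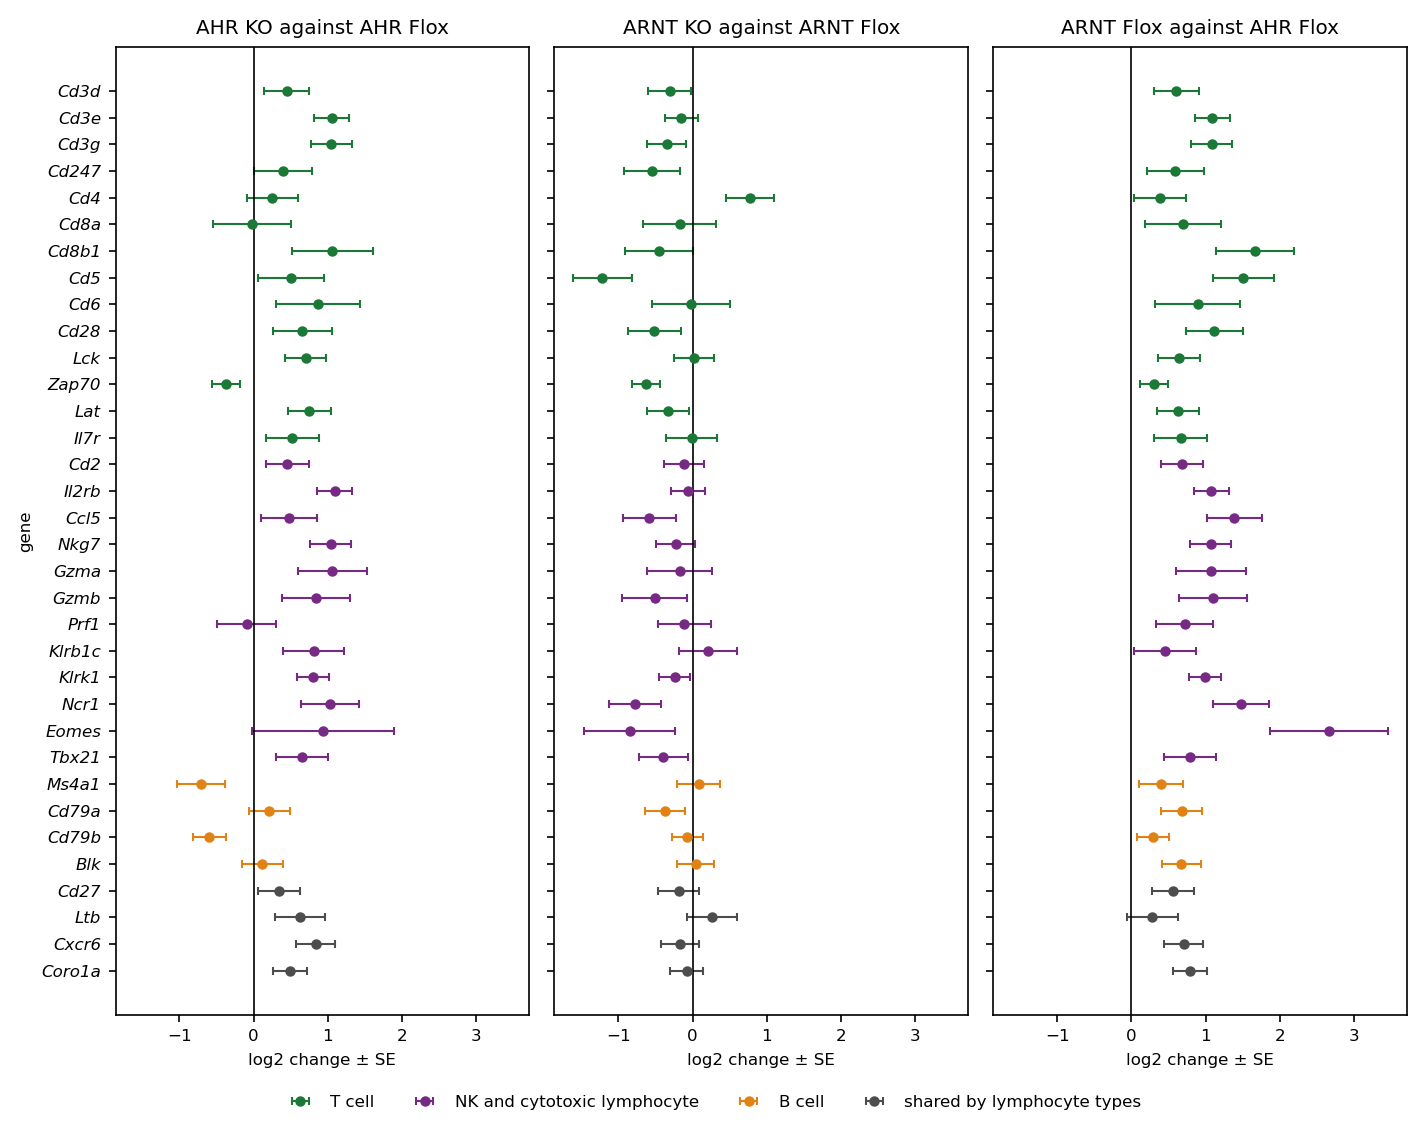
Fitted log2 change with its SE for each of the 34 genes in 3 comparisons, on a shared axis; points are coloured by cell type. AHR KO against AHR Flox and ARNT Flox against AHR Flox share the AHR Flox libraries, and lie mostly right of 0 (medians 0.64 and 0.71), while ARNT KO against ARNT Flox has a median of −0.18. The fitted change of Eomes rests on 0 to 2 counts in AHR Flox and is no measured fold.

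AHR KO and ARNT Flox are both set against the same 3 AHR Flox livers, so a low value there enters both comparisons. Side by side, Il2rb averaged 4.63 ± 0.307 CPM in AHR KO, 4.39 ± 1.35 CPM in ARNT KO, 4.57 ± 1.12 CPM in ARNT Flox and 2.17 ± 0.282 CPM in AHR Flox (SD, n = 3 each). Cd3e averaged 1.21 ± 0.210 CPM in AHR KO, 1.12 ± 0.0526 CPM in ARNT KO, 1.24 ± 0.125 CPM in ARNT Flox and 0.582 ± 0.123 CPM in AHR Flox. For these genes the AHR Flox livers were the group that stood apart. Cd79b gave another order, at 1.13 ± 0.0816 CPM in AHR KO, 2.00 ± 0.469 CPM in ARNT KO, 2.09 ± 0.324 CPM in ARNT Flox and 1.72 ± 0.189 CPM in AHR Flox, with AHR KO lowest.

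The difference between the ARNT KO and AHR KO changes, which also draws on the AHR Flox livers, was tested as an interaction. None of the 34 was called (0, against 0.043% of all genes), and 10 had an unadjusted p under 0.05, all with the lower change in ARNT KO, against 9.51% of all genes in either direction, 5.02% lower and 4.49% higher. The median difference was −0.92, with Cd3g at −1.40 ± 0.38 (edgeR adjusted p = 0.288), Cd3e at −1.2 ± 0.32 (0.288) and Il2rb at −1.15 ± 0.33 (0.306). Without ARNT KO replicate 3, Il2rb was called (−1.42, adjusted p = 0.0339; between 0.0339 and 0.612 in all settings run), as were 1.38% of all genes, and 21 had an unadjusted p under 0.05, 20 lower and 1 higher, against 17.2% of all genes. Ncr1 and Klrk1 gave −1.80 ± 0.53 and −1.04 ± 0.30 (adjusted p = 0.313 for both), Nkg7 −1.26 ± 0.38 (0.319), Cd5 −1.71 ± 0.59 (0.397), Cxcr6 −1.01 ± 0.37 (0.421), Lat −1.08 ± 0.40 (0.425) and Cd28 −1.17 ± 0.53 (0.524).

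Further genes of T and NK cells were examined in AHR KO, and in both of their lists the count called was also 0 without ARNT KO replicate 3. Of 30 other T cell and T cell receptor genes, 21 were tested and 0 called, with 4 higher and 1 lower at an unadjusted p under 0.05 and a median log2 change of 0.30. Over all genes tested, 6.33% were higher and 5.58% lower at that threshold. Skap1, an adaptor of T cell receptor signalling, was at 0.976, 0.647 and 0.658 CPM in AHR KO, against 0.579, 0.308 and 0.124 CPM in AHR Flox, with no overlap (1.13 ± 0.45, edgeR adjusted p = 0.343). Of 28 other NK and cytotoxic genes, 16 were tested and 0 called, with 4 higher and 0 lower and a median of 0.52. Klrd1, the CD94 receptor, was at 0.813, 1.13 and 1.22 CPM in AHR KO, against 0.307, 0.615 and 0.456 CPM in AHR Flox (1.2 ± 0.40, edgeR adjusted p = 0.250). Klre1 was at 0.553, 0.582 and 0.564 CPM in AHR KO, against 0.272, 0.103 and 0.290 CPM in AHR Flox (1.36 ± 0.39, adjusted p = 0.182). The lowest AHR Flox values of Klre1 and Skap1, at 0.103 and 0.124 CPM, equalled 3 counts in their libraries. Both changes thus rest on few counts. Klra8 and Klra4, Ly49 receptors, were at 0 in all 12 libraries, and paralogs of these receptor families can share reads.

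Of 27 other B cell and plasma cell genes, 19 were tested in AHR KO and 0 called, with a median of −0.04. Igj, the joining chain of secreted antibody and a plasma cell gene, was at 5.14, 8.32 and 8.59 CPM in AHR KO, against 2.69, 1.78 and 2.07 CPM in AHR Flox (log2 change 1.75 ± 0.33, edgeR adjusted p = 0.0769). Igj was called without ARNT KO replicate 3 (adjusted p = 0.0391), as the 1 gene of its list, against 0.966% of all genes in that fit. Its groups did not overlap, with AHR KO above AHR Flox, while those of the B cell receptor gene Cd79b did not overlap with AHR KO below. Of the 25 tested chemoattractant, adhesion and survival genes, 0 were called, and without ARNT KO replicate 3 there was 1, the sphingosine-phosphate receptor gene S1pr5, lower in AHR KO (log2 change −0.96, adjusted p = 0.0315). Itgb7, the gut and lymphocyte homing integrin beta 7, was at 4.65, 3.92 and 3.70 CPM in AHR KO, against 2.69, 2.32 and 1.95 CPM in AHR Flox (0.81 ± 0.22, adjusted p = 0.155).

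Markers of other blood and liver cells were set beside the lymphocyte genes. In AHR KO, of 20 genes of all leukocytes 0 had an unadjusted p under 0.05 (3 without ARNT KO replicate 3, with 0 called), and their summed level was 247 to 267 CPM, against 222 to 280 CPM in AHR Flox. The 20 monocyte and dendritic cell genes summed to 453 to 485 CPM in AHR KO, against 320 to 332 CPM in AHR Flox. Of them 3 were higher at an unadjusted p under 0.05, against 6.33% of all genes, and 19 of 20 had a higher fitted level (median 0.32). Bst2, also listed as an interferon response gene, made up 31.6% of this sum over the 12 libraries. Its level overlapped, at 121, 146 and 182 CPM in AHR KO, against 109, 127 and 123 CPM in AHR Flox. Cd74 was at 129, 127 and 129 CPM in AHR KO, against 93.8, 81.0 and 78.0 CPM in AHR Flox. H2-Ab1, an MHC class II gene that B cells also express, was at 62.0, 58.9 and 50.5 CPM in AHR KO, against 36.6, 29.7 and 25.3 CPM in AHR Flox (log2 change 0.90 ± 0.23, edgeR adjusted p = 0.141). Without ARNT KO replicate 3, H2-Ab1 and its partner chain gene H2-Aa were called (adjusted p = 0.0315 and 0.0451), 2 of the 20, against 0.966% of all genes. The 17 Kupffer cell and macrophage genes summed to 1018 to 1167 CPM in AHR KO, against 949 to 1270 CPM in AHR Flox. AHR Flox replicate 3, lowest for the T cell and NK sums, was the highest AHR Flox liver for both the leukocyte and the Kupffer sum. The 3 tested erythrocyte genes all stood lower at an unadjusted p under 0.05, against 5.58% of all genes (median −1.17). Their summed level was 14.5 to 17.8 CPM in AHR KO, against 19.8 to 30.5 CPM in AHR Flox. Alas2 made up 92.3% of this sum over the 12 libraries. Slc4a1 was as low as 0.0941 CPM in AHR KO replicate 3, which equals 3 counts. In all libraries 4 globin genes were at 0. The part of these cells in the lymphocyte values was not tested.

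In ARNT Flox against AHR Flox, 15 of the 20 leukocyte genes, 15 of the 20 monocyte and dendritic genes and 11 of the 17 Kupffer genes stood higher at an unadjusted p under 0.05, with none called (medians 0.62, 0.76 and 0.40). Over all genes tested, 10.5% stood higher at that threshold. In these lists 12, 12 and 9 genes were called higher without ARNT KO replicate 3, against 6.38% of all genes in that fit. The leukocyte sum was 311 to 351 CPM in ARNT Flox, against 222 to 280 CPM in AHR Flox, and the interferon response sum was 821 to 889 CPM in ARNT Flox, against 425 to 499 CPM in AHR Flox. Of 16 tested other NK genes 7 stood higher (median 0.73), of 21 other T cell genes 10 (median 0.68) and of 19 other B cell genes 5 (median 0.31), with 0 called, against 5, 3 and 3 called without ARNT KO replicate 3. In ARNT KO the leukocyte sum was 255 to 425 CPM, against 311 to 351 CPM in ARNT Flox, and 0 of the 20 had an unadjusted p under 0.05. Without replicate 3, the highest ARNT KO liver, 13 of the 20 were lower at an unadjusted p under 0.05, with 0 called and a median of −0.41, and 15 of the 18 interferon response genes were called lower. Over all genes in that fit, 8.94% were lower at an unadjusted p under 0.05 and 1.37% were called in either direction. The higher lymphocyte genes of ARNT Flox stood beside higher genes of other leukocytes. In AHR KO they stood beside higher genes of the monocyte and dendritic list, MHC class II genes among them. The part of these other genes was not tested.

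**Figure D5:**
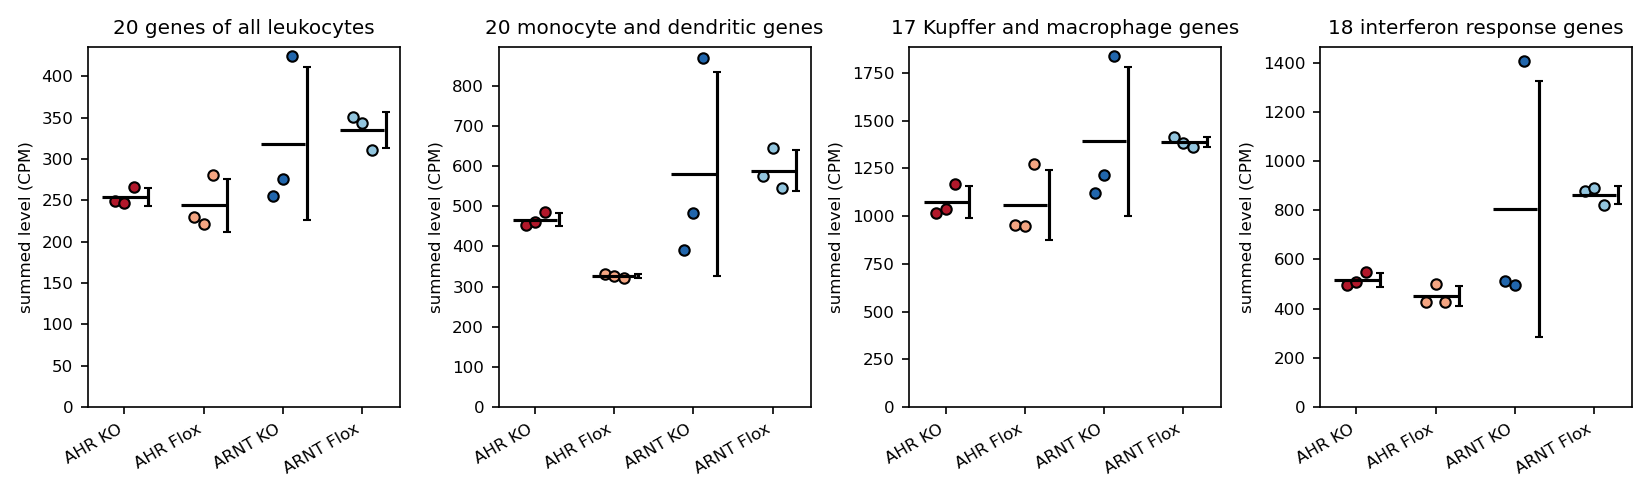
Summed level in CPM of genes of all leukocytes, of monocytes and dendritic cells, of Kupffer cells and macrophages, and of the interferon response in each liver; points are livers, lines are means and bars are SD (n = 3). The monocyte and dendritic sum is 453 to 485 CPM in AHR KO and 320 to 332 CPM in AHR Flox, and ARNT KO replicate 3 is the highest liver of each panel. Bst2 is in both lists, as 31.6% of the monocyte and dendritic sum and 23.5% of the interferon response sum.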

How the data were processed

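The table deposited by the authors gives unnormalised whole-number counts for 22537 symbols in 12 liver libraries. Per the labels, Trizol was used for extraction and NEBNext Ultra II for libraries of poly-A RNA. Tools in the submitters' processing notes are STAR 2.5.4b and 2.6.0c, DESeq2 1.20.0, R 3.5.1 and bcl2fastq 2.20, with the build mm10. Which program counted reads, on which annotation and with which strand setting, is not given in the sources used here, and no batch is labelled.

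The members, gene lists and tests were chosen with earlier results of these data known. Every kept member is given with its level. A log2 change is printed for members with an unadjusted p under 0.05, and for the 2 genes with the smallest p of other lists. One edgeR 4.0.16 fit (R 4.3.3) of the counts of all 12 libraries had a mean per group, TMM scaling and the default filterByExpr filter (minimum count 10, minimum total 15), and the two-sided quasi-likelihood F test was adjusted over 13968 genes. The call threshold was an adjusted p of 0.05. The fit was tested on simulated data. The alternatives were DESeq2 1.42.0, limma-voom (limma 3.58.1), other scalings and filters, only the groups compared, a replicate block and leaving out each library. Counts at an unadjusted p under each alternative were added after seeing the data. No 2 libraries of a group were alike within sampling noise (chi-square per degree of freedom 17.0 to 248). Deviations of same-numbered libraries of the 2 Flox lines had correlations of 0.327, 0.153 and 0.101. The labels give no pairing, and 3 libraries per group cannot establish it, so the main fit treats the libraries as unpaired. The limits given for a count of 0 and the coefficients of variation from counting cover counting error only, whereas SDs and SEs also cover the spread between mice. Gene positions came from GENCODE M21, which is on GRCm38, the same assembly as mm10. The values of 1 gene among the other lists are left out here.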

Additional observations from a re-analysis of the deposited data

How the results depend on the processing

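Among changes with an unadjusted p under 0.05 none reversed under the alternatives run: 847 recomputed values stayed on their side of the threshold and 29 passed it anew. The other changes were recomputed without ARNT KO replicate 3: Lck, Klrb1c and Ltb then reversed in ARNT KO, at −0.20, −0.03 and −0.25 against 0.02, 0.21 and 0.26 with it, and Blk in the difference between the deletions, at 0.06 against −0.08. In AHR KO against AHR Flox 0 of the 34 genes were called, but 2 (Il2rb and Klrk1) with the DESeq2 test (3.19% of all genes given an adjusted p), and 0 to 1 when each library was left out in turn. In ARNT KO against ARNT Flox 0 were called under each alternative run. The difference between the 2 deletions gave 0, and 0 to 1 with a library left out. In ARNT Flox against AHR Flox the count was 0, and 7 with the DESeq2 test (4.06% of all genes), 7 with only the groups of the comparison (11.9% of all genes), and 0 to 11 with a library left out, the 11 without ARNT KO replicate 3. With limma-voom and with the replicate block 0 were called in all 4 comparisons. The block spans all 4 groups, so it cannot show what a pairing within the Flox lines alone would change. Correlations of same-numbered libraries were 0.014, 0.05 and 0.141 for AHR KO and AHR Flox, and −0.037, −0.008 and −0.012 for ARNT KO and ARNT Flox. At an unadjusted p under 0.05 the counts of 12, 3, 10 and 20 became 10, 3, 11 and 18 with the block. With a library left out they ranged over 7 to 14, 2 to 7, 7 to 21 and 12 to 22. Shares of all genes at that threshold are not given for the block or for most fits with a library left out. These moves are therefore not read as a trait of the members. The filter at 1 CPM left 1 in place of 3 in ARNT KO, since fewer members were tested. The cause of the other moves was not tested. Depth limits the low genes, such as Eomes and Cd5, with medians of 3.5 and 9.5 counts per library.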

Other observations

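The ratio of Cd8a to Cd4 counts was 0.962, 1.44 and 1.41 in AHR KO, against 1.18, 2.31 and 0.750 in AHR Flox. AHR Flox replicate 3 had only 6 Cd8a and 8 Cd4 counts. Since other cells can also carry Cd4, the ratio in whole liver does not separate cytotoxic from helper T cells. The Cd8a to Cd4 ratio was 0.613, 0.894 and 1.28 in ARNT KO, against 1.32, 3.10 and 1.29 in ARNT Flox, where the highest ARNT KO value and the lowest ARNT Flox value were nearly equal, on 14 to 62 counts of either gene. These groups were compared by value, with no test. Vpreb3, a gene of the B lineage, was at 1.30, 2.14 and 2.04 CPM in AHR KO, against 0.238, 1.44 and 0.538 CPM in AHR Flox, and overlapped. S1pr5, the receptor with which NK cells leave tissues, was at 8.33, 8.28 and 6.74 CPM in AHR KO, against 14.7, 17.4 and 13.2 CPM in AHR Flox, with no overlap (log2 change −0.96 ± 0.35, edgeR adjusted p = 0.297, and 0.0315 without ARNT KO replicate 3). The cell type that carries the S1pr5 reads was not tested.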
